A study of Homo sapiens with 36 samples.

Results

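The comparison described here sets clone 5 against clone 4 of one edited HEK293 population, both kept without ligand, and asks how the 2 clones differed at baseline across autosomal genes. It uses 6 of the 36 samples of the series, the 3 bulk RNA libraries of each clone that received the vehicle DMSO, picked by their column labels. HEK293 is an established human line from embryonic kidney. Its cells received a library of guide RNAs and then a donor construct that fuses HaloTag, a ligand-binding protein tag, to endogenous genes. HyT36, a hydrophobic HaloTag ligand used at 25 µM, is meant to misfold the tagged product, and the 6 bulk libraries with HyT36 give the same 2 clones with ligand. Those libraries enter no group mean without ligand, but the filter on low counts and the estimate of spread draw on all 12 libraries. Each group is a single clone, both clones carry the editing, and cells without a tag were not among the bulk libraries. A difference between the groups is therefore a difference between 2 clones, and guide, tag and clonal history cannot be told apart. Whether the replicates of a group are separate cultures is not stated, so a p-value here reflects only how far these libraries spread, which may be technical.

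Cells of an established line carry inherited differences in DNA copy number and in which genes are silenced, and a clone fixes the state of the single cell it grew from. HEK293 cells are known to transcribe genes of developing kidney and of neural tissue side by side. Genes whose promoters hold many CpG dinucleotides can be silenced by DNA methylation, a mark copied to daughter cells at cell division.

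Gene counts lay between 23416253 and 26948771 in the 6 libraries without ligand, so a level of 1 CPM, which relates a count to the scaled library total, rested on more than 20 reads. Reads of a guide named for HDAC2 numbered 2318 to 3029 a library in clone 4 but 16 to 18 in clone 5. A guide named for IGF1R had 5 to 9 reads in clone 4 and 3072 to 3806 in clone 5, and one named for LRIG1 had 0 in clone 4 and 108 to 140 in clone 5. The mRNA of HDAC2, a histone deacetylase, was higher in clone 5 (log2 difference 0.53 ± 0.04, SE; edgeR adjusted p = 1.4e-15). That of IGF1R, a growth factor receptor, was lower (-0.22 ± 0.05, edgeR adjusted p = 6.3e-04), and LRIG1 did not pass (-0.06 ± 0.12, edgeR adjusted p = 0.68). Neither HDAC2 nor IGF1R was lost as a transcript in the clone whose libraries held its guide, though each was lower there than in the other clone.

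Transcripts of epithelial carcinoma line markers differed between libraries of the same clone. Without KRT8 and KRT18, which each of these 6 libraries held at 19.4 CPM or more, the markers summed to 141, 8.50 and 8.26 CPM in clone 4 and to 74.9, 99.0 and 79.8 CPM in clone 5. KRT19, a keratin, stood at 69.9, 0.235 and 0.0832 CPM in clone 4 and at 32.2, 52.0 and 40.0 CPM in clone 5. Of the 25 markers in the table, 6 were at 0 in clone 4 replicates 2 and 3, among them the epithelial factor GRHL2, against 1 or 2 in the other libraries, where KRT5 was always at 0. Of the 21 markers tested, 1 was higher and 1 lower in clone 5 (4.76% each, against 25% and 30.5% of all tested autosomal genes). Given the spread within clone 4, few calls do not show that the clones were alike for these markers. The other results were also fitted on only the libraries with over 20 CPM of these transcripts, which leaves 1 library of clone 4 without ligand, with the spread of the lone clone 4 library taken from the other groups. Where that fit changed a count by more than 1.5 times, its value stands beside the count. The part of these transcripts in the other results was not tested.

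Of 24049 autosomal genes in the table, 13537 passed the filter on low counts and were tested. By the edgeR quasi-likelihood test 7520 of them, or 55.6%, differed between the clones at a Benjamini-Hochberg adjusted p under 0.05. In clone 5, 3390 (25%) were higher and 4130 (30.5%) lower. Most of these differences were small: the median size over all tested genes was 0.23 on the log2 scale, and 1460 genes (10.8%) both passed and differed by more than 2-fold, 708 higher (5.23%) and 752 lower (5.56%). Past 20-fold there were 56 genes higher and 96 lower. Large differences were found mainly among genes of low level. Level is the mean over all 12 libraries, so near absence in 1 clone itself lowers the level of a gene, and part of this pattern is built in. With the genes cut into 3 equal classes by mean level, 26.4% of the lowest class passed and exceeded 2-fold, against 5.10% of the middle and 0.887% of the highest class. In the highest class the balance also leaned down, with 41.9% of genes lower and 19.9% higher in clone 5.

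**Figure D1:**
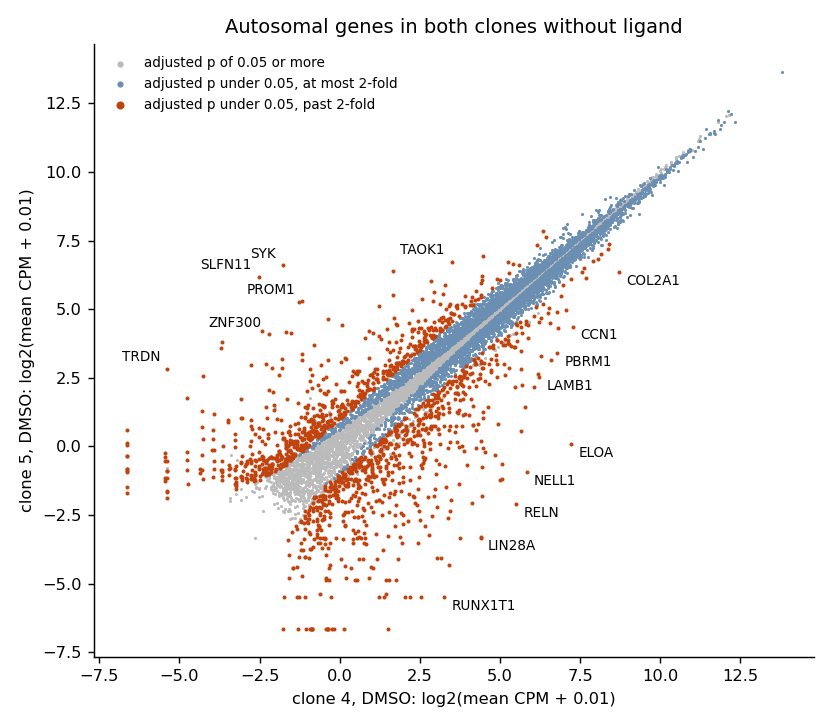
Each point is 1 of the 13537 autosomal genes tested, placed by log2 of its mean CPM plus 0.01 over 3 libraries of clone 4 (x axis) and of clone 5 (y axis), both with DMSO. The rows of points near -6.6 are genes without reads in a clone, and the named genes lie far from the diagonal on both sides.

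In the libraries with HyT36, which come from the same 2 clones, 7592 autosomal genes (56.1%) passed, 3358 higher (24.8%) and 4234 lower (31.3%) in clone 5, and 1437 (10.6%) also differed by more than 2-fold, 696 higher (5.14%) and 741 lower (5.47%). Of the 7520 genes that differed without ligand, 6236 passed in the same direction with HyT36. The genes past 2-fold in both conditions and in the same direction numbered 1150, which is 78.8% of the 1460 without ligand and 80.0% of the 1437 with HyT36, and 3 of the 1460 passed in the opposite direction. The clone difference itself differed with ligand for 43 autosomal genes (0.318%) by the interaction test of the same edgeR fit, 17 of them among the 1460 (1121 had an unadjusted p under 0.05).

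The largest rises were of genes that clone 4 hardly transcribed. SLFN11, an interferon-inducible factor that blocks stressed replication forks, stood at 0.169, 0.157 and 0.167 CPM in clone 4 and at 70.1, 74.0 and 74.1 CPM in clone 5 (log2 difference 8.75 ± 0.15, SE; edgeR adjusted p = 1.7e-33; chromosome 17, 35350305 to 35373621, GRCh38.p14). SYK, a tyrosine kinase known from immune receptor signalling, stood at 0.127, 0.353 and 0.375 CPM against 95.7, 96.0 and 98.7 CPM (8.37 ± 0.11, edgeR adjusted p = 1.1e-39; chromosome 9, 90801600 to 90898549). CHFR, a ubiquitin ligase of the mitotic entry checkpoint, stood at 0.719, 0.196 and 0.291 CPM against 34.9, 38.4 and 42.4 CPM (6.59 ± 0.20, edgeR adjusted p = 3.4e-14; chromosome 12, 132832356 to 132887618). For these 3 genes every clone 5 library lay above every clone 4 library by a wide margin.

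PROM1, the stem cell surface protein CD133, was at 0.508, 0.510 and 0.291 CPM in clone 4 and at 37.5, 38.9 and 41.0 CPM in clone 5 (6.47 ± 0.13, edgeR adjusted p = 3.0e-34). Of TRDN, a muscle calcium-release protein gene, clone 4 held 1 read and clone 5 562 (ratio 539, exact 95% binomial interval 96.3 to 21321), and of PDE4D, a cyclic AMP phosphodiesterase, 3 and 461 (ratio 147, interval 50.1 to 717). These intervals cover counting error only. Other rises of this size were those of the membrane transporter genes SLCO1B3 (7.57) and SLC5A12 (7.36) and the lymphocyte receptor gene BTLA (6.66). The zinc finger gene ZNF300 (6.36), CCDC8 (5.89), the non-coding RNA gene LINC03007 (5.77), RFLNA (5.67), the F-box gene FBXO17 (5.36) and ELAPOR2 (5.03) completed the 15 largest (log2 differences, edgeR adjusted p at most 1.1e-14). With HyT36 all 15 passed in the same direction, at log2 differences of 4.46 (ELAPOR2) to 9.68 (SLCO1B3).

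The largest falls were of genes that clone 5 held at low levels. RELN, which encodes the secreted guidance protein reelin, stood at 46.0, 44.6 and 45.5 CPM in clone 4 and at 0.125, 0.294 and 0.255 CPM in clone 5 (-7.60 ± 0.14, SE; edgeR adjusted p = 1.7e-35; chromosome 7, 103471789 to 103989658). LIN28A, an RNA-binding protein that blocks let-7 microRNA maturation, stood at 22.6, 19.7 and 21.2 CPM against 0.125, 0.110 and 0.0365 CPM (-7.81 ± 0.19, edgeR adjusted p = 2.5e-31; chromosome 1, 26410817 to 26429728). ELOA, the large subunit of the elongation factor elongin, stood at 147, 149 and 150 CPM against 1.33, 1.14 and 0.656 CPM (-7.17 ± 0.09, edgeR adjusted p = 1.9e-41; chromosome 1, 23743471 to 23762059). By mean CPM these 3 genes, picked by the same rule, were 202-fold, 234-fold and 143-fold lower in clone 5.

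Of RUNX1T1, a transcriptional corepressor gene, clone 4 held 699 reads and clone 5 held 1 (ratio 729, 130 to 28836). SEMA6D, a transmembrane semaphorin gene, had 424 reads against 1 (ratio 442, 78.9 to 17507), and PPP2R2B, a phosphatase regulatory subunit gene of brain, 784 against 3 (ratio 273, 92.9 to 1325). CYYR1 (-7.83), the neuronal endosomal gene NSG1 (-7.34), the adhesion gene NEGR1 (-7.19), the cholinesterase gene BCHE (-7.16), the secreted NELL1 (-6.83), the semaphorin gene SEMA3D (-6.26), the matrix gene HAPLN3 (-6.26), CPXM1 (-6.23) and GHDC (-6.22) completed the 15 largest falls (log2 differences, edgeR adjusted p at most 1.9e-23). With HyT36 all 15 passed in the same direction. For PPP2R2B, NSG1, NELL1 and SEMA3D the size of the clone difference changed with ligand by the interaction test.

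**Figure D2:**
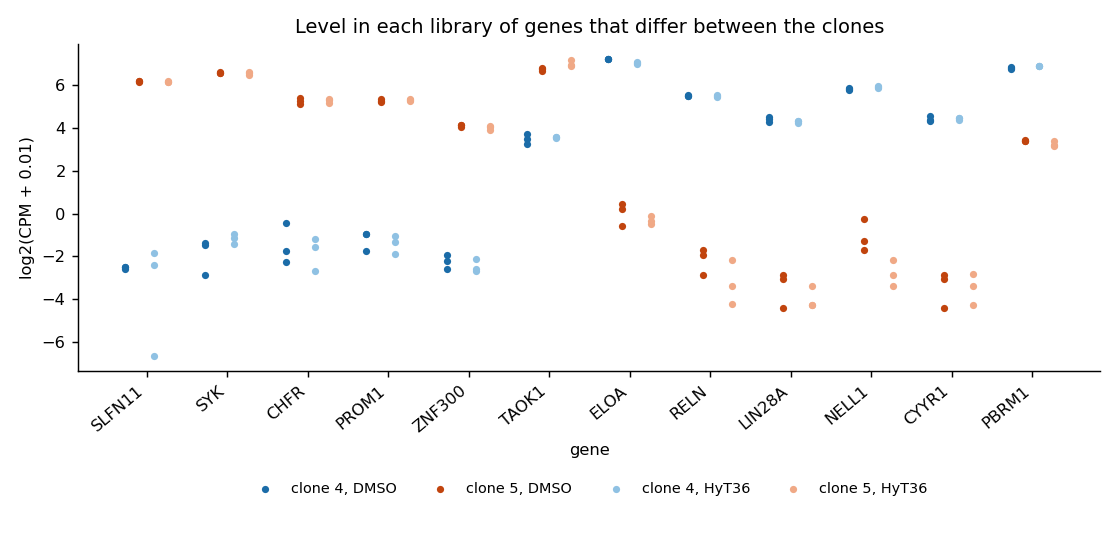
Level of 12 genes in each of the 12 bulk libraries, as log2 of CPM plus 0.01 (y axis), with 3 points for each clone and condition. For each gene the points of a clone, with DMSO and with HyT36, lie far from those of the other clone.

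Among genes with at least 5 CPM in both clones, where counting error is small, differences reached 13.0-fold. LAMB1, a laminin chain of basement membranes, stood at 76.1, 74.3 and 72.8 CPM in clone 4 and at 5.04, 5.92 and 6.20 CPM in clone 5 (-3.69 ± 0.07, edgeR adjusted p = 2.6e-34). PBRM1, a subunit of the PBAF chromatin remodelling complex, stood at 115, 107 and 111 CPM against 10.3, 10.8 and 10.4 CPM (-3.40 ± 0.06, edgeR adjusted p = 2.4e-36). TAOK1, a kinase of stress signalling, stood at 13.1, 9.57 and 11.1 CPM against 103, 110 and 106 CPM (3.25 ± 0.10, edgeR adjusted p = 1.2e-12). In the lower clone these transcripts were still detected in every library.

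Further falls at this level were those of the integrin gene ITGA4 (-3.56), TRIM44 (-3.45), the matricellular gene CCN1 (-2.92), the tubulin gene TUBA4A (-2.83) and the lactate exporter gene SLC16A3 (74.9, 86.0 and 74.1 CPM against 9.04, 9.64 and 10.5 CPM). The other rises were those of the vitamin B12 uptake receptor gene CD320 (3.19), the myelin gene MOBP (2.80), the phosphatase subunit gene PPP2R2C (2.68), LITAF (2.58), the signalling adaptor gene PIK3AP1 (2.47), OLFML3 (2.40) and the chloride channel gene TTYH1 (2.33). The values in parentheses are log2 differences without ligand, except for SLC16A3. All had an edgeR adjusted p of at most 2.0e-06, and each passed in the same direction with HyT36. PPP2R2C and PPP2R2B belong to one family of phosphatase subunits and differed in opposite directions. In bulk libraries, fewer cells of a type and less RNA per cell cannot be told apart.

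Genes restricted to a clone were defined by a mean of at least 1 CPM in one clone and under 0.1 CPM in the other without ligand. There were 47 restricted to clone 4 and 19 restricted to clone 5, and all 66 passed in the same direction with HyT36. Fewer stayed under 0.1 CPM in the other clone with HyT36, 34 of the 47 and 16 of the 19. All of the 47 were protein-coding, and 4 of the 19 were long non-coding RNA genes. Promoter windows of 300 bases from RefSeq (GRCh38.p14), from 250 before to 50 after the start, were found for 34 of the 47 and 13 of the 19. A window was counted as CpG-rich when its ratio of observed to expected CpG was over 0.6 and its GC content over 50%. Of all tested autosomal genes with a window, 8816 of 11012 (80.1%) were CpG-rich. The restricted genes were not matched to them by level. Of the genes restricted to clone 4, 22 of 34 (64.7%) were CpG-rich, with a median ratio of 0.758 and a median GC content of 67.5%. Of those restricted to clone 5, 1 of 13 (7.69%) was, with a median ratio of 0.206 and a median GC content of 44.3%. Over all genes that passed and differed by more than 2-fold the directions lay much closer, with 322 of 537 higher genes (60.0%) and 368 of 556 lower genes (66.2%) CpG-rich. These shares are descriptions without a test. Each window lies at an annotated start, and gene counts do not show which start the cells used.

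The 250 bases before the RefSeq start of 6 strongly differing genes, chosen after their values were seen, hold few or many CpG. They are written 5′ to 3′ on the gene's strand, with each CpG in capitals. TRDN (chromosome 6, 123636951 to 123637200, minus strand) and SLCO1B3 (chromosome 12, 20810455 to 20810704, plus strand), both higher in clone 5, hold 0 CpG in these bases, and SLFN11 (chromosome 17, 35373622 to 35373871, minus strand), also higher, holds 15. RELN (chromosome 7, 103989659 to 103989908, minus strand) and ELOA (chromosome 1, 23743221 to 23743470, plus strand), both lower in clone 5, hold 43 and 35, and BCHE (chromosome 3, 165837424 to 165837673, minus strand), also lower, holds 2.
TRDN: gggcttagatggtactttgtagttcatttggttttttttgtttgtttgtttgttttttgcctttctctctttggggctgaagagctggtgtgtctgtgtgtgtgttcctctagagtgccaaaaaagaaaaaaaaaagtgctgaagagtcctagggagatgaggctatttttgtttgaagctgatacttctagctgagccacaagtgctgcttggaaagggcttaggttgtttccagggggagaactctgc
SLCO1B3: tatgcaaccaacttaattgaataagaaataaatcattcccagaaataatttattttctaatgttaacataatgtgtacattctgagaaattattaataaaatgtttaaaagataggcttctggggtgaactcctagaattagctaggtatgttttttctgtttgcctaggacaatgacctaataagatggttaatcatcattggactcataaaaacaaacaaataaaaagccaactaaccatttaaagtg
SLFN11: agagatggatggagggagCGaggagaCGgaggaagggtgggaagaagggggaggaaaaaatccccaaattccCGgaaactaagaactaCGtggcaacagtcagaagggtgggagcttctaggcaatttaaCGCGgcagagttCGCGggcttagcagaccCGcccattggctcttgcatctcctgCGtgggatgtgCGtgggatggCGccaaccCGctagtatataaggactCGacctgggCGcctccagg
RELN: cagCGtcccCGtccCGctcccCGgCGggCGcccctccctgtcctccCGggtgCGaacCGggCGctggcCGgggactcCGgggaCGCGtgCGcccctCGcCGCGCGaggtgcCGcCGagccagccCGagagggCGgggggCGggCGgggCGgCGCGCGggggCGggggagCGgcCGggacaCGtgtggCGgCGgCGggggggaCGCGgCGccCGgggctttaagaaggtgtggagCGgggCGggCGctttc
ELOA: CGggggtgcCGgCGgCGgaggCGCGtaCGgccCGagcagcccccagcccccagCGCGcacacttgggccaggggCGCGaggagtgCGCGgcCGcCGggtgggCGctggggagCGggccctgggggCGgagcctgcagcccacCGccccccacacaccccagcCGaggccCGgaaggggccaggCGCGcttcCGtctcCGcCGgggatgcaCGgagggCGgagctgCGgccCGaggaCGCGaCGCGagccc
BCHE: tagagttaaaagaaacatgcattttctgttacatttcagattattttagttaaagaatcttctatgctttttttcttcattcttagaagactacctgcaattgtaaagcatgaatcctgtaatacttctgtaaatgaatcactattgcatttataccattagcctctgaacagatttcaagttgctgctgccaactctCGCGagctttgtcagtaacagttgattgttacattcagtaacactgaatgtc
A count of CpG describes these bases and says nothing of their methylation, which was not measured. Whether transcription began at these annotated starts in either clone was not measured either.

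Genes of growth factor signalling through FGF receptors and ERK were lower in clone 5 wherever they passed the test. The list holds FGF ligands and receptors together with genes that ERK signalling is known to induce or that restrain it. Of 31 tested, 0 were higher and 21 lower in clone 5 (67.7%, against 30.5% of all tested autosomal genes), with a median log2 difference of -0.54 against -0.02 over all tested autosomal genes. Past 2-fold, 8 were lower, where 5.56% of all tested autosomal genes were. With HyT36 0 were higher and 16 lower, at a median of -0.53.

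Among the ligands FGF5 stood at 2.33, 1.06 and 1.75 CPM in clone 4 and at 0.125, 0.0736 and 0.0729 CPM in clone 5 (-4.18 ± 0.48, edgeR adjusted p = 9.5e-10), and FGF2 at 32.0, 28.1 and 30.4 CPM against 21.8, 21.2 and 21.5 CPM (-0.49 ± 0.07, edgeR adjusted p = 1.5e-07). FGF2 did not pass with HyT36 (-0.09, edgeR adjusted p = 0.29). FGF19 was lower (-2.04 ± 0.31), as was FGF12 (-3.49 ± 0.35), an intracellular member of the family that does not act as a secreted ligand. Of the receptors FGFR2 stood at 110, 108 and 113 CPM against 70.9, 75.1 and 73.8 CPM (-0.59 ± 0.04, edgeR adjusted p = 3.9e-15), FGFR4 was lower by less (-0.43 ± 0.06), and FGFR1 (-0.07 ± 0.04, edgeR adjusted p = 0.12) and FGFR3 (0.01 ± 0.06, adjusted p = 0.89) did not pass. Of the 4 receptor genes, 2 thus differed and 2 did not pass.

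Among genes that ERK signalling is known to induce, the transcription factor gene ETV1 stood at 8.72, 7.18 and 7.87 CPM in clone 4 and at 0.292, 0.331 and 0.364 CPM in clone 5 (-4.56 ± 0.20, edgeR adjusted p = 3.9e-22). Its relative ETV4 (-0.99 ± 0.22) and PHLDA1 (-1.29 ± 0.14) were lower too. The feedback inhibitor SPRY1 stood at 6.22, 5.14 and 6.79 CPM against 3.25, 3.13 and 2.70 CPM (edgeR adjusted p = 1.1e-06). The inhibitors SPRED1 (-0.49 ± 0.07) and SPRY2 (-0.35 ± 0.09) were also lower, while DUSP6, a phosphatase that inactivates ERK, was near 1 CPM or below and did not pass (-0.96 ± 0.47, edgeR adjusted p = 0.084). FLRT2, whose family of membrane proteins can bind FGF receptors, was lower as well (-0.34 ± 0.06). FGF5, FGF2, FGF19, FGFR4, FGFR1, FGFR3, ETV4, SPRY1, SPRY2, SPRED1, DUSP6 and FLRT2 were named after their values were seen.

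**Figure D3:**
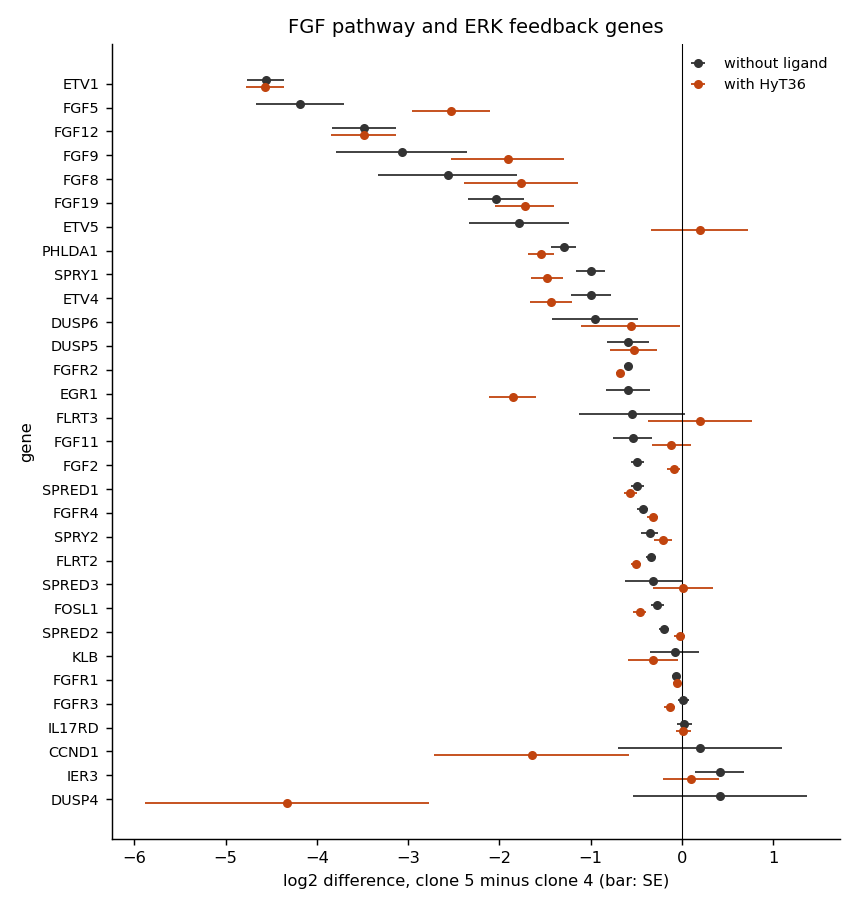
Log2 difference, clone 5 minus clone 4 (x axis), of the 31 tested FGF pathway and ERK feedback genes (y axis), without ligand and with HyT36, with bars of 1 SE. Points without ligand lie left of 0 for the 21 genes that passed, and the 2 conditions lie close for most genes with short bars.

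Other receptors were split. Of 24 receptor tyrosine kinase genes outside the FGF and Eph families, 7 were higher and 9 lower. These are 29.2% and 37.5%, against 25% and 30.5% of all tested autosomal genes. KIT, the stem cell factor receptor, stood at 24.8, 22.2 and 21.9 CPM in clone 4 and at 0.542, 1.14 and 0.911 CPM in clone 5 (-4.70 ± 0.14, edgeR adjusted p = 6.0e-25), and the VEGF receptor gene FLT1 was lower (-4.90 ± 0.32). MERTK (0.88 ± 0.09) and the collagen receptor gene DDR1 (0.41 ± 0.06) were higher.

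Of 51 collagen, laminin and other matrix genes tested, 10 were higher and 24 lower in clone 5, with a median of -0.46. These are 19.6% and 47.1%, against 25% and 30.5% of all tested autosomal genes. Past 2-fold 3 were higher and 13 lower, where 5.23% and 5.56% of all tested autosomal genes were. COL2A1, the fibrillar collagen of cartilage, stood at 425, 425 and 416 CPM in clone 4 and at 82.2, 81.6 and 80.5 CPM in clone 5 (-2.37 ± 0.04, edgeR adjusted p = 1.3e-37). THBS2, a matricellular thrombospondin gene, was lower (-3.30 ± 0.09), and the laminin chain gene LAMB2 (1.47 ± 0.05) and the fibrillin gene FBN2 (0.91 ± 0.04), both named after their values were seen, were higher. LAMB1 and LAMB2, which encode alternative beta chains of laminin, thus differed in opposite directions. With HyT36 the list had 12 higher and 22 lower, at a median of -0.10.

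Of 58 cadherin, integrin and neural adhesion genes, 15 were higher and 30 lower (25.9% and 51.7%), with a median of -0.40 (-0.53 with HyT36). Beside ITGA4, MCAM was lower (-1.69 ± 0.05), and the synaptic adhesion genes IGSF11 (2.07 ± 0.08) and CNTNAP5 (2.79 ± 0.11) were higher. Of 62 semaphorin, plexin, ephrin and other guidance genes, 18 were higher and 27 lower (29.0% and 43.5%). SLIT3, a secreted axon repellent, went against the falls of RELN, SEMA3D and SEMA6D, at 0.381, 0.981 and 0.333 CPM in clone 4 and at 12.5, 13.1 and 13.1 CPM in clone 5 (4.48 ± 0.18, edgeR adjusted p = 2.8e-22). Of 27 clustered protocadherin genes, which give neurons their surface identities, 13 were higher and 7 lower (48.1% and 25.9%). Most of the calls, 10 and 6, were past 2-fold, where 5.23% and 5.56% of all tested autosomal genes were. PCDHB3 (2.03 ± 0.11) and PCDHB5 (0.75 ± 0.05) were higher, and PCDHGA1 (-3.02 ± 0.17) and PCDHGC3 (-1.60 ± 0.09) lower. Protocadherin genes of the gamma cluster share exons, so how their reads were split between members is uncertain.

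Markers of kidney, mesenchyme and neural tissue, which describe the HEK293 state itself, differed by gene. Of 17 kidney development and tubule markers tested of 29 in the table, 2 were higher and 7 lower. These are 11.8% and 41.2%, against 25% and 30.5% of all tested autosomal genes. The podocyte surface gene PODXL stood at 244, 239 and 240 CPM in clone 4 and at 106, 116 and 106 CPM in clone 5 (-1.15 ± 0.04, edgeR adjusted p = 5.2e-26). CDH6 (-1.14 ± 0.04) and LHX1 (-0.57 ± 0.08) were lower. Of 19 mesenchymal and fibroblast markers, 1 was higher (5.26%), S100A4 (1.36 ± 0.14), and 11 lower (57.9%), at a median of -0.42. MME, a membrane metalloprotease, stood at 58.4, 52.5 and 54.4 CPM in clone 4 and at 3.00, 2.72 and 2.41 CPM in clone 5 (-4.35 ± 0.09, edgeR adjusted p = 1.5e-33). VIM (-0.42 ± 0.04), named after its values were seen, was lower by less. With HyT36, 3 of the 19 were higher and 8 lower, at a median of -0.09.

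Of 20 neural progenitor markers, 6 were higher and 10 lower (30% and 50%, against 25% and 30.5% of all tested autosomal genes). PROM1 was among the rises, and DACH1 (-1.89 ± 0.05) and OTX2 (-0.57 ± 0.04), transcription factors of eye and forebrain development, were lower. Of 10 tested neuronal and neuroendocrine markers of 33 in the table, 5 were higher and 4 lower (50% and 40%). MAP2 stood at 5.71, 3.96 and 5.04 CPM in clone 4 against 0.208, 0.442 and 0.182 CPM in clone 5 (-4.11 ± 0.26, edgeR adjusted p = 6.2e-17). The neuronal tubulin gene TUBB3 stood at 318, 370 and 348 CPM against 552, 541 and 548 CPM (0.66 ± 0.04, edgeR adjusted p = 9.4e-17). UCHL1 (-0.52 ± 0.04) was lower and GAP43 (1.74 ± 0.18) higher. The neural lists thus held both directions, and their members did not move as a block.

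Of 15 pluripotency and oncofetal genes, 5 were higher and 8 lower (33.3% and 53.3%, against 25% and 30.5% of all tested autosomal genes). Past 2-fold 3 were higher and 2 lower, where 5.23% and 5.56% of all tested autosomal genes were. Log2 differences in the list ran from -7.81 (LIN28A) to 5.48. Of 6 tested germline and cancer-testis genes 3 were higher and 0 lower (50% and 0%). Among the blood and endothelial markers 4 were tested, of which 0 were higher and 2 lower (0 and 4 in the libraries with over 20 CPM of epithelial transcripts), and of 4 adrenal and steroidogenic markers 1 and 2. The shares higher and lower were 0% and 50% for the blood and endothelial markers, and 25% and 50% for the adrenal and steroidogenic markers. Of 27 imprinted genes, 6 were higher and 11 lower (22.2% and 40.7%).

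Developmental pathways other than FGF held both directions. Of 35 Wnt pathway genes 9 were higher and 18 lower (25.7% and 51.4%, against 25% and 30.5% of all tested autosomal genes). The Wnt receptor genes FZD8 (3.04 ± 0.17) and FZD5 (0.63 ± 0.05) were higher, and the co-receptor gene LRP6 (-0.66 ± 0.04) and the ligand gene WNT10B (-1.72 ± 0.13) lower. Of 26 Notch pathway genes 7 were higher and 11 lower (26.9% and 42.3%). The 4 with the smallest p were lower: the receptor genes NOTCH3 (-0.99 ± 0.05) and NOTCH1 (-0.65 ± 0.05), the ligand gene JAG2 (-0.60 ± 0.05) and MFNG, which modifies Notch receptors (-0.73 ± 0.05). Of 40 TGF-beta and BMP pathway genes 12 were higher and 12 lower (30% and 30%), shares near those of all genes. The ligand gene BMP2 (0.94 ± 0.08) was higher and the ligand gene TGFB2 (-3.44 ± 0.30) lower. Of 17 Hedgehog pathway genes, 4 were higher and 7 lower (23.5% and 41.2%).

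Of 26 YAP and TEAD targets, genes of the Hippo pathway, 5 were higher and 14 lower, at a median of -0.22. These are 19.2% and 53.8%, against 25% and 30.5% of all tested autosomal genes. CCN1 stood at 158, 151 and 158 CPM in clone 4 and at 22.3, 20.6 and 18.9 CPM in clone 5 (-2.92 ± 0.05, edgeR adjusted p = 1.7e-35). CCN2 (-1.04 ± 0.09) and AJUBA (-0.99 ± 0.05) were also lower. With HyT36 5 were higher and 12 lower.

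Lists of cell division, ribosome and metabolic genes differed in how many members were lower in clone 5. They are to be read beside the share by level: in the highest of the 3 level classes 41.9% of all tested genes were lower. Of 58 G2/M and mitosis genes 4 were higher and 38 lower (65.5%), with a median of -0.15 and 0 past 2-fold. The condensin gene NCAPH (-0.80 ± 0.04), the kinetochore gene NDC80 (-0.78 ± 0.05), KIF20B (-0.52 ± 0.05) and CDC20, an activator of the anaphase-promoting complex (-0.40 ± 0.04), had the smallest p. Of 51 G1/S genes 11 were higher and 18 lower (35.3%), near the 30.5% of all tested autosomal genes. The cyclin gene CCND2 stood at 4.11, 3.81 and 3.66 CPM in clone 4 and at 0.0833, 0.147 and 0 CPM in clone 5 (-5.57 ± 0.39, edgeR adjusted p = 1.1e-14), while CCNE1 (0.60 ± 0.07) and E2F1 (0.48 ± 0.06) were higher.

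Of 79 cytosolic ribosomal protein genes 7 were higher and 46 lower (58.2%), with a median of -0.11. RPL7A (-0.49 ± 0.03), RPS23 (-0.51 ± 0.04) and RPS2 (-0.33 ± 0.03) were lower and the paralog gene RPL22L1 (0.54 ± 0.05) higher. In only the libraries with over 20 CPM of epithelial transcripts the list had 9 higher and 24 lower, at a median of -0.04. Ribosomal protein genes have many processed pseudogenes, so their reads are uncertain.

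Of 47 PERK and ATF4 targets, genes of the integrated stress response, 5 were higher and 30 lower (63.8%) without any ligand, at a median of -0.25. The serine and one-carbon enzyme genes SHMT2 (-0.82 ± 0.04) and PSAT1 (-0.61 ± 0.04), PCK2 (-1.23 ± 0.07) and the arginine transporter gene SLC7A1 (-0.59 ± 0.04) had the smallest p. With HyT36, 3 were higher and 39 lower, at a median of -0.42. The ATF6 and XBP1 targets, which serve the ER, were split, with 13 higher and 10 lower of 41 (31.7% and 24.4%). EDEM1, a factor of ER-associated degradation, was higher (0.86 ± 0.06), as was SDF2L1 (0.41 ± 0.05). Of 32 HSF1 targets, the cytosolic chaperone program, 2 were higher and 16 lower (6.25% and 50%), at a median of -0.10. The chaperone gene HSP90AB1 was lower (-0.53 ± 0.04) and the co-chaperone gene BAG3 higher (0.52 ± 0.07). Of all tested autosomal genes 25% were higher and 30.5% lower.

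Of 34 SREBP targets, genes of sterol and fatty acid synthesis, 3 were higher and 18 lower. These are 8.82% and 52.9%, against 25% and 30.5% of all tested autosomal genes. The desaturase genes FADS1 (-0.85 ± 0.04) and SCD (-0.51 ± 0.04), the sterol reductase gene TM7SF2 (-1.03 ± 0.07) and ACLY (-0.44 ± 0.04), which makes cytosolic acetyl-CoA, were lower. With HyT36 3 were higher and 25 lower. Of 44 glycolysis and hypoxia genes 6 were higher and 24 lower (13.6% and 54.5%), at a median of -0.18. Beside SLC16A3, the glycolytic enzyme genes ENO2 (-0.77 ± 0.04), TPI1 (-0.60 ± 0.04) and GAPDH (-0.49 ± 0.04) were lower. Of 33 NRF2 targets 8 were higher and 10 lower (24.2% and 30.3%), shares near those of all genes. NQO1 (-0.85 ± 0.05) and the heme oxygenase gene HMOX1 (-1.50 ± 0.11) were lower, and the glutathione synthesis gene GCLC (0.51 ± 0.05) higher.

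Mitochondrial ribosomal proteins had 18 higher and 30 lower of 77 (23.4% and 39.0%), and nuclear respiratory chain subunits 12 and 24 of 77 (15.6% and 31.2%). Proteasome subunits had 6 and 11 of 36 (16.7% and 30.6%), and lysosome and autophagy genes 14 and 21 of 53 (26.4% and 39.6%). Over all tested autosomal genes the shares were 25% and 30.5%. The shares lower of the respiratory chain and proteasome lists were thus near that of all genes, and under the 41.9% of the highest level class. Their shares higher were under the 25% of all genes and the 19.9% of that class. Metallothioneins had 2 higher and 3 lower of 6 (33.3% and 50%). Of 29 p53 targets 11 were higher and 8 lower (37.9% and 27.6%), and the growth inhibitor gene BTG2 (0.89 ± 0.07) had the smallest p. Of 58 regulators of chromatin silencing and DNA methylation, 10 were higher and 26 lower (17.2% and 44.8%). The deacetylase gene HDAC9 stood at 338, 315 and 344 CPM in clone 4 and at 139, 145 and 150 CPM in clone 5 (-1.20 ± 0.04, edgeR adjusted p = 3.8e-25), while HDAC2 was higher. The Polycomb gene BMI1 (-0.67 ± 0.04) and the histone methyltransferase gene EHMT2 (-0.58 ± 0.05) were lower. The largest difference of the list was a rise, that of DNMT3L, with 0 reads in clone 4 and 80 in clone 5 (log2 difference 7.69). DNMT3L was named after its values were seen.

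Immune and stress-inducible genes did not share a direction. All tested autosomal genes were higher for 25% and lower for 30.5%, interferon-stimulated genes for 23.9% and 13.0%, and immediate early genes for 17.2% and 51.7%. Of 46 interferon-stimulated genes 11 were higher and 6 lower, and in only the libraries with over 20 CPM of epithelial transcripts 9 and 18. SLFN11, HERC5 (1.50 ± 0.08) and HERC6 (1.33 ± 0.07) were higher, and BST2, which tethers budding virus particles, lower (-1.50 ± 0.05). Of 21 antigen presentation genes 8 were higher and 5 lower (38.1% and 23.8%). NLRC5, a transactivator of MHC class I genes, stood at 3.51, 3.33 and 3.21 CPM in clone 4 and at 22.5, 23.4 and 20.2 CPM in clone 5 (2.71 ± 0.10, edgeR adjusted p = 3.8e-25). HLA-B (0.63 ± 0.04), the peptide transporter gene TAP1 (0.80 ± 0.07) and HLA-E (0.79 ± 0.07) were higher too, and HLA genes are similar enough to share reads. Of 25 NF-kB targets 7 were higher and 6 lower (28% and 24%). Of 29 immediate early genes 5 were higher and 15 lower (3 and 9 in the libraries with over 20 CPM of epithelial transcripts), with JUN (-1.88 ± 0.15) and DUSP2 (-1.53 ± 0.12) lower and KLF4 (1.25 ± 0.05) higher.

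Of 33 potassium channel genes 9 were higher and 15 lower (27.3% and 45.5%, against 25% and 30.5% of all tested autosomal genes). Past 2-fold 4 were higher and 11 lower, where 5.23% and 5.56% of all tested autosomal genes were. The 2-pore channel genes KCNK2 and KCNK1 differed in opposite directions, KCNK2 at 29.2, 30.3 and 31.5 CPM in clone 4 against 1.96, 1.18 and 2.08 CPM in clone 5 (-4.13 ± 0.11, edgeR adjusted p = 3.2e-29) and KCNK1 at 4.99, 4.98 and 5.12 CPM against 20.1, 19.8 and 18.1 CPM (1.94 ± 0.09, edgeR adjusted p = 2.7e-21). Of 65 calcium, sodium, chloride and ligand-gated channel genes 19 were higher and 22 lower (29.2% and 33.8%), shares near those of all genes. The ATP-gated channel gene P2RX5 was lower (-2.38 ± 0.08) and the cation channel gene TRPM3 higher (1.70 ± 0.07). Of 197 solute carriers 54 were higher and 77 lower (27.4% and 39.1%). Past 2-fold 15 were higher and 11 lower, to be read beside the same 5.23% and 5.56%. Of 25 claudin and tight junction genes 6 were higher and 4 lower (24% and 16%).

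Transcription factor families held both directions. Of 26 HOX genes 10 were higher and 2 lower (38.5% and 7.69%, against 25% and 30.5% of all), at a median of 0.26. HOXB4 was higher (0.78 ± 0.09) and HOXB9, of the same cluster, lower (-2.51 ± 0.35). With HyT36 11 were higher and 4 lower. Of 407 zinc finger ZNF genes 107 were higher and 80 lower (26.3% and 19.7%), ZNF814 (2.97 ± 0.10) among the former and ZNF518B (-2.37 ± 0.09) among the latter. Other homeobox and T-box factors had 24 higher and 23 lower of 76 (31.6% and 30.3%), and FOX, GATA, SOX and KLF factors 19 and 17 of 58 (32.8% and 29.3%).

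**Figure D4:**
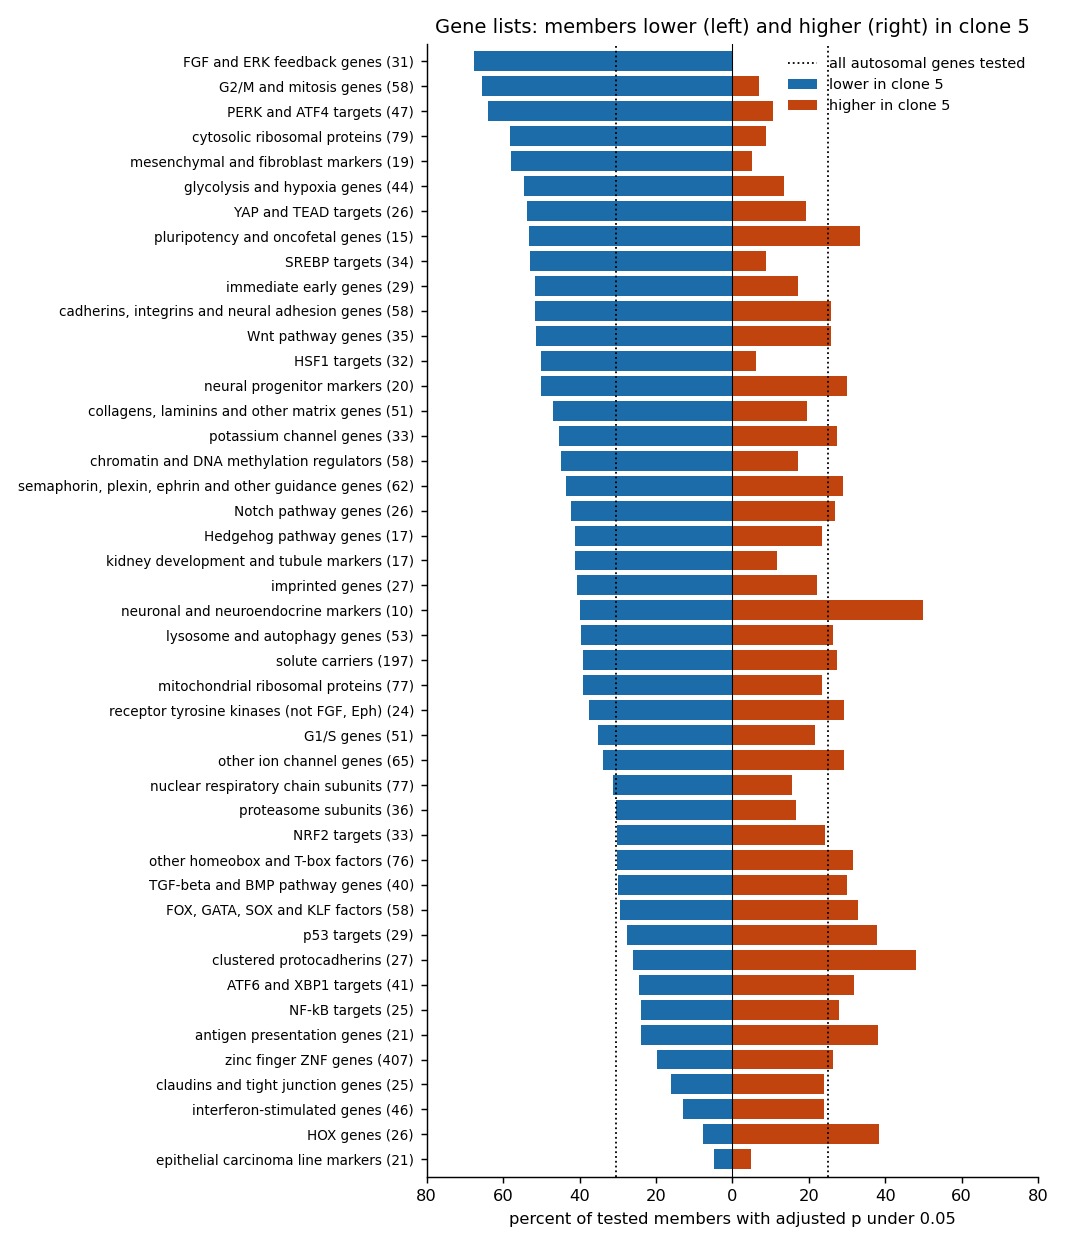
Percent of tested members lower (bars to the left) and higher (bars to the right) in clone 5 without ligand at an adjusted p under 0.05, for each list with at least 10 tested members, whose number stands in parentheses. Dotted lines mark all tested autosomal genes, at 30.5% lower and 25% higher. FGF and ERK feedback genes had the largest share lower among these lists.

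Long non-coding RNA genes leaned the other way from protein-coding genes. Of 978 tested, 362 were higher and 75 lower in clone 5 (37.0% and 7.67%). Past 2-fold 216 were higher and 31 lower (22.1% and 3.17%, against 5.23% and 5.56% of all tested autosomal genes). Their median log2 difference was 0.40, against -0.04 for 12522 protein-coding genes, of which 485 were higher and 719 lower past 2-fold. Non-coding genes have low levels, so both classes were also set side by side at matched level. At a mean log2 CPM up to 0, from 0 to 1, from 1 to 2 and from 2 to 4 the medians were 0.52, 0.45, 0.41 and 0.28 for the non-coding genes and 0.03, -0.05, -0.01 and 0.04 for the protein-coding genes. With HyT36 the median was 0.39, and of the 216 genes higher past 2-fold 215 were above 0 and 174 passed.

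Autosomal long non-coding RNA made up 0.552, 0.519 and 0.541% of gene reads in clone 4 without ligand and 0.606, 0.599 and 0.590% in clone 5. Reads that the authors' counter assigned to no feature were also more frequent in clone 5, at 4.16 to 4.18% of deposited counts against 3.08 to 3.55% in clone 4, and at 3.50 to 4.10% against 2.95 to 3.16% with HyT36. Their part in the difference of the non-coding genes was not tested. In only the libraries with over 20 CPM of epithelial transcripts the median of the non-coding genes was 0.43. Examples named after their values were seen are LINC01694, at 21.5, 20.6 and 21.5 CPM in clone 4 and 61.0, 63.9 and 61.0 CPM in clone 5 (1.55 ± 0.06, edgeR adjusted p = 2.0e-25), IRX2-DT (1.57 ± 0.07), OLMALINC (1.49 ± 0.07) and ESRG (1.39 ± 0.07). LINC00641 was lower, at 52.9, 51.3 and 50.7 CPM against 16.8, 16.6 and 19.5 CPM (-1.55 ± 0.07, edgeR adjusted p = 6.9e-23). Strand use in counting is not stated, so reads of a non-coding gene and of an overlapping gene cannot be told apart.

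**Figure D5:**
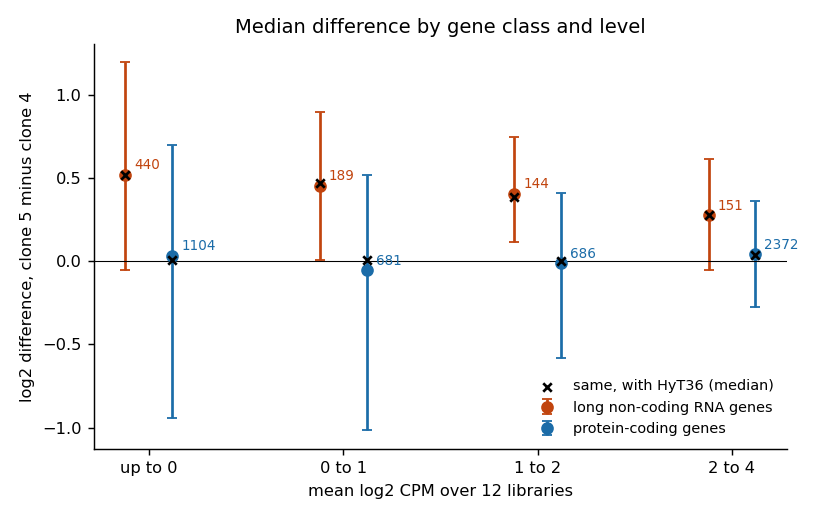
Median log2 difference, clone 5 minus clone 4 without ligand (y axis), of long non-coding and protein-coding genes in 4 classes of mean log2 CPM over 12 libraries (x axis), with bars from the lower to the upper quartile, the number of genes beside each point, and crosses for the medians with HyT36. The non-coding medians lie between 0.28 and 0.52 and the protein-coding medians between -0.05 and 0.04.

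The differences were spread over all autosomes. Medians by autosome lay between -0.07 (chromosome 21) and 0.03 (chromosome 20). Over 272 blocks of 50 neighbouring tested genes the medians ran from -0.20 to 0.29. The highest was on chromosome 19 from 52154107 to 55354719, a block with 19 zinc finger genes, where 25 genes were higher and 5 lower. CACNG6, a calcium channel subunit gene, was at 0, 0 and 0.167 CPM in clone 4 and at 2.00, 1.99 and 2.77 CPM in clone 5 (5.24 ± 0.61, edgeR adjusted p = 1.3e-07), and its neighbour CACNG7 was lower (-2.10 ± 0.26). TTYH1, TNNI3 (2.35 ± 0.55) and ZNF347 (1.52 ± 0.52, edgeR adjusted p = 0.012) were higher, and the call of ZNF347 was lost without clone 4 replicate 2 (1.32, edgeR adjusted p = 0.058) or 3 (1.25, adjusted p = 0.069). The next highest median, 0.24, was on chromosome 10 from 27504304 to 45792964, which holds FZD8. The lowest medians, both -0.20, were on chromosome 11 from 111927315 to 119101853, with 6 genes higher and 25 lower, and on chromosome 3 from 155762617 to 177201800, with 4 higher and 22 lower. With HyT36 these 4 blocks had medians of 0.23, 0.13, -0.11 and -0.18, each with the same sign. The order of blocks depends on their size: with 25 genes a block the highest median was on chromosome 7 and the lowest on chromosome 3 outside the block named above, and with 100 genes a block on chromosomes 12 and 16.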

How the data were processed

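Bulk RNA of HEK293 clones 4 and 5 was sequenced with DMSO and with HyT36, 3 libraries a group. The authors deposited 1 table of raw counts per gene, not normalized, per the file headers, with 36601 genes, 22344 guide features and 4 summary entries. GRCh38 and Cell Ranger 7 stand in the submitters' processing notes without a role. The sources used here give no aligner, annotation or strand setting for the bulk counts. Guide features (at most 0.0125% of deposited counts) and summary entries (16.1 to 17.6%) stayed out of library sizes and tests. The other 24 samples were not used here.

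Counts were tested with edgeR 4.0.16 (R 4.3.3): filterByExpr by group, TMM scaling, 1 mean for each of 4 groups over all 12 libraries, robust quasi-likelihood F-test, two-sided, Benjamini-Hochberg over all 14892 genes tested, threshold 0.05, prior count 0.125. Counts of genes are over the 13537 that RefSeq (GRCh38.p14) places on autosomes by symbol, and 845 tested genes had no match. SE is the size of the log2 difference divided by the square root of F, an approximation. CPM values are TMM-scaled. Intervals are 95% exact binomial.

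The members, the 49 gene lists and the named genes were chosen with earlier results of these data known. Named genes are autosomal, past the threshold and without overlap between the libraries of both clones: the 15 largest rises and falls at 5 CPM or more in the higher clone, the 8 largest each way at 5 CPM or more in both, up to 4 members of each list with the smallest p, the 3 guide-named genes, and the extremes of the 2 lowest and 2 highest blocks. Lists were described by counts and medians without a test. Some genes the rule names are not described.

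Replicates of a group differed beyond sampling noise (chi-square per degree of freedom 1.96 to 8.71 over the 4 groups). Without ligand, clone 4 replicate 1 had 8.71 and 7.47 against replicates 2 and 3, which had 2.77 between them. The pairs of clone 5 without ligand had 2.98 to 4.26. Clone 4 replicate 1 is also the clone 4 library without ligand that held most epithelial transcripts. The code was tested on simulated data. Alternatives were other scalings, filters, a replicate block, epithelial transcripts as a covariate or a selection of libraries, a fold of 1.2, leaving out each library, limma-voom (limma 3.58.1) and DESeq2 1.42.0. The covariate and the selection without KRT8 and KRT18 were added after seeing the data.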

Additional observations from a re-analysis of the deposited data

Results flagged for a closer look

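The clone difference of 5 named genes was not the same with and without ligand, by the interaction test of the edgeR fit. CCN1, a matricellular gene, had 156 ± 4.04 CPM in clone 4 and 20.6 ± 1.70 CPM in clone 5 without ligand (mean ± SD). With HyT36 it had 102 and 17.4 CPM, so that the log2 difference was smaller with ligand (change 0.38 ± 0.08, SE as in the changes below; interaction test adjusted p = 0.015). NSG1 had 0.0417, 0.0368 and 0.0729 CPM in clone 5 without ligand and 0.377, 0.521 and 0.170 CPM with it (change 2.78 ± 0.55, adjusted p = 0.0080). PPP2R2B went from 0.0833, 0.0368 and 0 CPM in clone 5 to 0.377, 0.261 and 0.170 CPM (change 2.69 ± 0.62, adjusted p = 0.041). NELL1, at 0.833, 0.294 and 0.401 CPM in clone 5 without ligand, had 0.209, 0.0869 and 0.127 CPM with HyT36 (change -1.87 ± 0.42, adjusted p = 0.027), and SEMA3D, at 0.208, 0.184 and 0.437 CPM, had 0.0837, 0.0434 and 0 CPM (change -2.73 ± 0.60, adjusted p = 0.026). Apart from CCN1, these changes are between low levels in clone 5. The epithelial transcripts also differed between the DMSO and HyT36 libraries of both clones. Without KRT8 and KRT18 they summed to 141, 8.50 and 8.26 CPM in clone 4 with DMSO and to 7.83, 86.1 and 86.6 CPM with HyT36. In clone 5 the sums were 74.9, 99.0 and 79.8 CPM with DMSO and 10.4, 8.90 and 9.78 CPM with HyT36. The part of these transcripts was not tested.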

How the results depend on the processing

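The 7520 genes called without ligand numbered 6628 to 7543 under the other scalings, filters, epithelial covariates, library selections, limma-voom and DESeq2, and 6849 to 7379 when each library was left out in turn (1395 to 1583 past 2-fold). In only the libraries with over 20 CPM of epithelial transcripts 6628 were called, and 5784 of the 7520 were called in the same direction. Against a fold of 1.2, 3346 were called (1644 higher, 1702 lower), and with HyT36 3481 (1680 higher, 1801 lower) of 7592. The 1460 genes past 2-fold without ligand depended more on the filter. They numbered 1082 of 12259 tested at 1 CPM or more in 3 libraries, and 1728 of 19343 without a filter on low counts. The replicate numbers share only a number: same-numbered libraries without ligand correlated at 0.11, -0.07 and 0.16 in their deviations, not every library correlated best with its own number, and the fit with the replicate block called 7363. With 25 and 100 genes a block the lowest median was -0.31 and -0.15 and the highest 0.44 and 0.16, at other places than with 50 genes a block. At 2 CPM against under 0.1 CPM 7 genes were restricted to clone 5 and 27 to clone 4, and at 1 CPM against under 0.2 CPM 38 and 81. Of 158 named genes that passed, 154 kept their call under all alternatives tried for them, and IGF1R and FLRT2 (fold of 1.2; edgeR adjusted p = 0.90 and 0.10), TNNI3 (libraries with over 20 CPM of epithelial transcripts; 0.12) and ZNF347 lost it under at least 1. LRIG1, which did not pass, ran from -0.21 (without clone 5 replicate 1) to 0.094 (without clone 5 replicate 3) when each library was left out in turn, and was 0.049 in those libraries. Apart from the epithelial markers, which define both covariates and the selection of libraries, the number called moved by more than 1.5 times over 5 lists: blood and endothelial markers (2; 1 with DESeq2, 4 with either covariate and in those libraries), germline genes (3; 5 without a filter on low counts) and, in those libraries, interferon-stimulated genes (17; 27), immediate early genes (20; 12) and cytosolic ribosomal proteins (53; 33). The cause of these moves was not tested. The planned selection by all epithelial markers could not separate libraries, since all 12 exceed 20 CPM with KRT8 and KRT18 included.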
